A study of Mus musculus with 6 samples.

Results

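Slpi and other genes of the WAP-domain family were examined in the back skin of neonatal mice. The 7 genes are Slpi, Wfdc1, Wfdc2, Wfdc3, Wfdc5, Wfdc12 and Wfdc18, among 18193 genes measured. They were chosen by gene symbol from the platform annotation, keeping each probe set that is annotated with 1 symbol, which gave 8 of 45037 probe sets (Wfdc3 has 2). The group was also selected on the comparison described here, because the difference of Slpi and Wfdc18 between genotypes was already known, so the values of the 7 genes in that comparison are a description and carry no test. Expression arrays had been hybridised with RNA of whole back skin from 6 female mice of 1 litter at postnatal day 2.5, 1 array per mouse, on a mixed FVB/N and C57BL/6 background. In 3 mice, labelled K5cre-caNrf2 (tg/tg), Cre driven by the keratin 5 promoter was combined with caNrf2, a constitutively active Nrf2. The other 3, labelled K5cre-wt (tg/wt), were the controls; their label names K5cre as well, without caNrf2. The keratin 5 promoter is active in basal keratinocytes and in the epithelium of hair follicles, so Cre was directed to epithelial cells, whereas the RNA came from all cells of the skin.

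WAP domains are small folds held together by disulphide bonds between cysteines. Many secreted proteins that carry them inhibit serine proteases, and some also kill bacteria. Slpi, secretory leukocyte protease inhibitor, blocks neutrophil elastase and cathepsin G, dampens inflammatory signalling in macrophages and is needed for normal healing of skin wounds in mice. The transcription factor Nrf2 switches on antioxidant and detoxification genes by binding antioxidant response elements together with small Maf proteins. The comparison asks which of these inhibitor genes differ in skin with a permanently active Nrf2 in keratinocytes.

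The promoters of 5 of the 7 genes were found in RefSeq (GRCm38.p6), and 3 of them are printed here. Those of Slpi and Wfdc18 are shown because these genes differed most between the genotypes, and that of Wfdc12 because it alone of the 5 held the core of an antioxidant response element. Each sequence is the 250 bases before the annotated start, 5′ to 3′ on the strand of the gene, and capitals mark a motif.
Slpi, chr2:164356508-164356757, minus strand: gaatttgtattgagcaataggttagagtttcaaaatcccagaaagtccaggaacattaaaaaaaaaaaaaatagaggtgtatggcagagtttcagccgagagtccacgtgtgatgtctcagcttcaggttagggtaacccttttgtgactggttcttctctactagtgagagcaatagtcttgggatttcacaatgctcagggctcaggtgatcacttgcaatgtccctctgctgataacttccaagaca
Wfdc18, chr11:83708754-83709003, plus strand: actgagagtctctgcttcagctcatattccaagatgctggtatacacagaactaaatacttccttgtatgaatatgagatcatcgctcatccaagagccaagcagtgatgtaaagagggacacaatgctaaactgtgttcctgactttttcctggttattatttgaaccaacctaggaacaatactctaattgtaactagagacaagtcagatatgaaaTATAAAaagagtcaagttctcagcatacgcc
Wfdc12, chr2:164190559-164190808, minus strand: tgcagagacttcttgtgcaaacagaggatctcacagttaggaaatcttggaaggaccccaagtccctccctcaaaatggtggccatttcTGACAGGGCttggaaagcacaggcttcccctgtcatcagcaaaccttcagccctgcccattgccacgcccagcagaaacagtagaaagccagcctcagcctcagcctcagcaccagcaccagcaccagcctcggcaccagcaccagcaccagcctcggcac

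The motifs had been searched on both strands of these 250 bases, namely the antioxidant response element core TGACNNNGC, the AP-1 site TGANTCA and the TATA box TATAAA. The first and the second can overlap, since both may begin with the same letters. No match to any of them was found before Slpi. Before Wfdc18 a TATA box lay at -31 to -26 from the start, and before Wfdc12 an element core lay at -161 to -153. Among all 32851 promoters of the table, 10.2% held the element core, 6.75% the AP-1 site and 12.4% the TATA box. The promoters of Wfdc2 and Wfdc3 held none of the motifs. Wfdc1 and Wfdc5 were not among the promoters analysed here.

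Slpi was higher and Wfdc18 lower in caNrf2 skin, each by less than 2-fold, while the log2 differences of the other 5 genes lay between -0.10 and 0.08. Values are log2 intensities unless stated otherwise. Slpi measured 7.02, 6.77 and 6.84 on control arrays 1 to 3 and 7.67, 7.61 and 7.28 on caNrf2 arrays 1 to 3 (probe set 1448377_at). The groups did not overlap, and caNrf2 array 3 lay closest to the controls. The group means were 6.88 ± 0.13 and 7.52 ± 0.21 (SD, n = 3), a log2 difference of 0.64 ± 0.11 (SE of the limma fit) and a ratio of 1.56 (95% interval 1.32 to 1.85). On the linear scale of the deposited table the means were 118 ± 10.6 and 185 ± 25.6 intensity units. Relative to the control mean, Slpi was higher by 0.79, 0.73 and 0.41 on the 3 caNrf2 arrays. In RNA of whole skin, a change in the number of cells of a type and a change in RNA per cell cannot be told apart, for Slpi as for the genes that follow.

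Wfdc18 encodes a small secreted protein also known as extracellular proteinase inhibitor, and is known in mice for its expression in the mammary gland. Its probe set (1417160_s_at) measured 7.69, 7.77 and 7.77 on the control arrays and 7.04, 6.97 and 6.96 on the caNrf2 arrays. The arrays of each genotype lay close together, and the groups were far apart. The means were 7.74 ± 0.05 and 6.99 ± 0.04 (SD, n = 3), a log2 difference of -0.75 ± 0.07 (SE) and a ratio of 0.593 (95% interval 0.531 to 0.664). In intensity units the means were 215 ± 6.97 and 127 ± 3.90. The letter s in the name of this probe set is given by the manufacturer to sets whose probes match more than 1 transcript, so that a related transcript may add to the signal.

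Slpi and Wfdc18 thus differed by similar amounts in opposite directions, but with unlike spread between mice. The SD within groups, pooled over both genotypes, was 0.17 for Slpi, above that of 87.4% of all probe sets. For Wfdc18 it was 0.05, above that of 6.21%. In the fit over all probe sets (limma, Benjamini-Hochberg adjusted p under 0.05), 1 of the 8 probe sets was called, that of Wfdc18, where 0.240% of all probe sets were called. Slpi was not called in it. When 1 probe set a gene was tested, both Slpi and Wfdc18 were called, where 0.374% of genes were. The groups did not overlap for 2 of the 8 probe sets, where this holds for 14.2% of all probe sets. Since both genes had been picked with this contrast known, nothing is read from these counts.

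**Figure D1:**
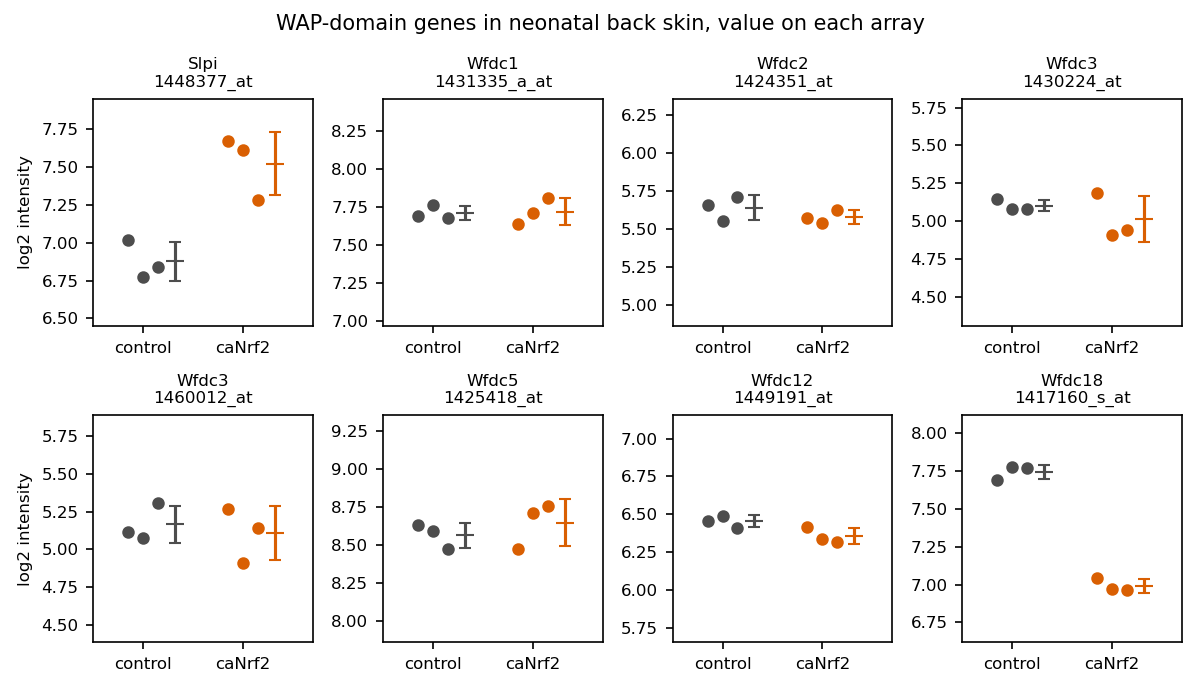
Log2 intensity of the 8 probe sets of Slpi and the Wfdc genes on each of 3 control (grey) and 3 caNrf2 (orange) arrays; the dash and bar beside the points are mean and SD, and each vertical axis spans the same range. Control and caNrf2 points are apart for Slpi and Wfdc18 and overlap in the other panels.

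The remaining 5 genes had overlapping groups on all 6 of their probe sets. Wfdc12, a small protein with a single WAP domain that is antibacterial in mice, measured 6.46, 6.49 and 6.41 on the control and 6.42, 6.33 and 6.31 on the caNrf2 arrays. Only caNrf2 array 1 reached into the control range, and the log2 difference was -0.10 ± 0.07 (95% interval -0.26 to 0.06). Wfdc5 measured 8.63, 8.59 and 8.47 in control and 8.47, 8.71 and 8.76 in caNrf2 skin. Here caNrf2 array 1 lay at the lower end of the controls and the others above them, with a difference of 0.08 ± 0.09 (-0.12 to 0.29). Slpi, Wfdc5 and Wfdc12 lie in 1 cluster of the genome with Wfdc2 and Wfdc3 on chromosome 2, where Slpi and Wfdc5 were higher and the others lower in the mean of caNrf2 skin.

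Wfdc2 encodes a secreted protein first described in the human epididymis and used as a serum marker of ovarian cancer. Its probe set measured 5.66, 5.55 and 5.71 in control and 5.57, 5.54 and 5.62 in caNrf2 skin. The groups overlapped, with a log2 difference of -0.06 ± 0.08 (-0.23 to 0.11). Wfdc3, whose function is little known, has 2 probe sets. On 1430224_at it measured 5.14, 5.08 and 5.08 in control and 5.19, 4.91 and 4.94 in caNrf2 skin, a log2 difference of -0.09 ± 0.09 (-0.28 to 0.11). On 1460012_at it measured 5.11, 5.07 and 5.31 in control and 5.27, 4.91 and 5.14 in caNrf2 skin, a difference of -0.06 ± 0.10 (-0.29 to 0.17). On both, caNrf2 array 1 was the highest and array 2 the lowest of the caNrf2 arrays. The probe sets of Wfdc2 and Wfdc3, 3 in all, were dimmer than the median probe set, whose mean was 6.34, but brighter than the 2.94 to 3.95 of 3 Y-linked genes, which female skin lacks. Among genes dimmer than that median, 68.2% were lower in the mean of caNrf2 skin, with a median of -0.05, against 0.01 among brighter genes.

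Wfdc1, which lies apart from the others on chromosome 8, encodes a secreted protein of stromal cells that slows growth in prostate. It measured 7.69, 7.76 and 7.68 in control and 7.64, 7.71 and 7.81 in caNrf2 skin. The caNrf2 arrays covered the whole control range, and the difference was 0.01 ± 0.08 (-0.16 to 0.18). Over the 6 probe sets of these 5 genes, 4 were lower and 2 higher in the mean of caNrf2 skin. Their 95% intervals reached from a ratio of 0.819 to one of 1.22, so that changes within these bounds remain possible with 3 arrays per genotype. Over the 7 genes, with the brighter probe set of Wfdc3, the median log2 difference was -0.06, beside -0.01 over all genes. It was 0.015 without caNrf2 array 2, -0.0056 without control array 3 and 0.0094 over the 5 genes brighter than the median probe set, so it gives the 7 genes no direction.

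Other genes with a WAP domain were then compared in the same fit, in which none was called. Of 16 listed genes 9 were measured, 7 of them dimmer than the median probe set, and their median log2 difference was -0.08. Over the 2 brighter genes alone it was 0.056. Wfdc21, a neighbour of Wfdc18, measured 11.77, 11.85 and 11.89 in control and 11.97, 12.02 and 12.09 in caNrf2 skin. Its groups did not overlap, and the difference of 0.19 ± 0.08 had an adjusted p of 0.517 (limma over all probe sets). The summed intensity of the 9 genes, 3849 to 4184 units in control and 4362 to 4709 in caNrf2 skin, was mostly that of Wfdc21. The other 8 summed to 355 to 386 units in control and 337 to 363 in caNrf2 skin, with overlap. Eppin, an inhibitor of the epididymis, differed by -0.30 ± 0.09 (adjusted p = 0.384) and Wap, the whey acidic protein of milk after which the domain is named, by -0.15 ± 0.08 (adjusted p = 0.618). Both were dim, at 4.61 and 5.19 in the mean of all arrays. Wfdc17, a WAP-domain gene of activated macrophages and microglia, differed by -0.08 ± 0.09 (adjusted p = 0.840).

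**Figure D2:**
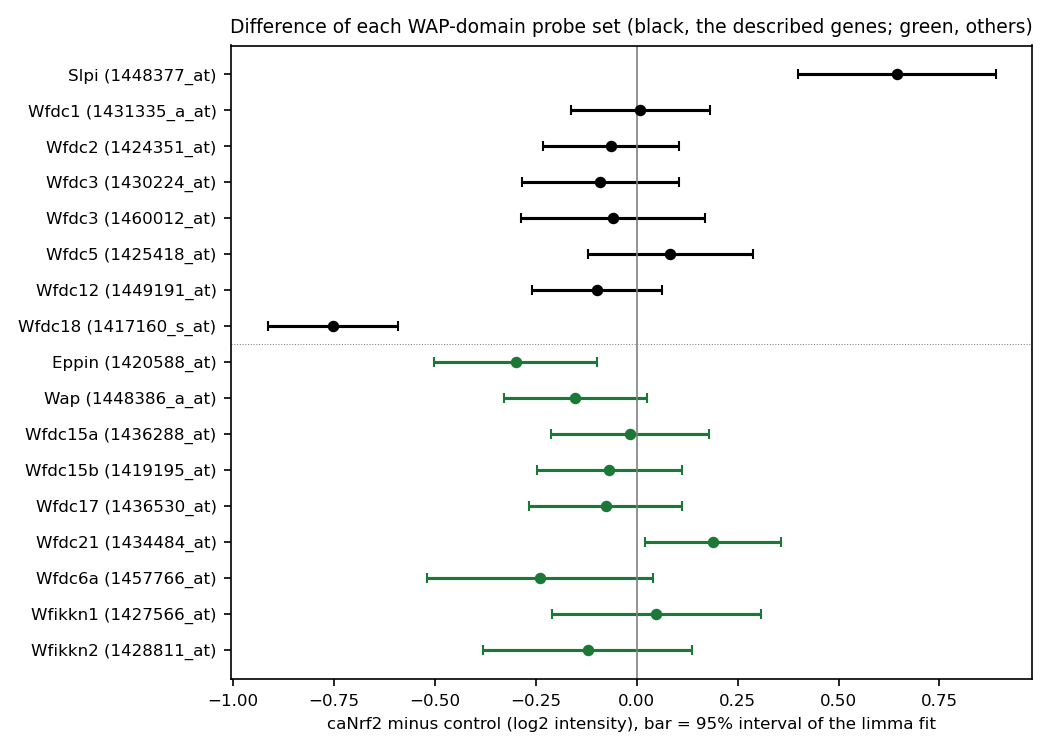
Log2 difference, caNrf2 minus control, of each probe set of the 7 genes (black) and of the brightest probe set of 9 other WAP-domain genes (green), with the 95% interval of the limma fit over 3 arrays per genotype. Slpi at 0.64 and Wfdc18 at -0.75 lie apart from the rest, which lie between -0.30 and 0.19.

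None of the genes next to Slpi and Wfdc18 was called, where 0.240% of all probe sets were, so little is read from this. By the gene order of RefSeq (GRCm38.p6), 5 of the 7 genes lie on chromosome 2, Wfdc18 on chromosome 11 and Wfdc1 on chromosome 8. The 5 nearest measured genes on either side of each of the 7 made up 47 other genes, with a lowest adjusted p of 0.384 (limma). Around Slpi these were 10 genes with differences from -0.22 to 0.16. They include 5 genes of seminal vesicle secretions, among them Svs5 next to Slpi at 0.01, and on the other side the cartilage matrix gene Matn4 at -0.15. Several of the 10 genes had control means of 2.82 to 3.07, no brighter than the Y-linked genes, so their differences say little. Around Wfdc18 the 10 genes differed by -0.16 to 0.23. Its direct neighbours there are the WAP-domain genes Wfdc17 at -0.08 and Wfdc21 at 0.19, and the chemokine genes Ccl3, Ccl4 and Ccl6 lie close by.

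**Figure D3:**
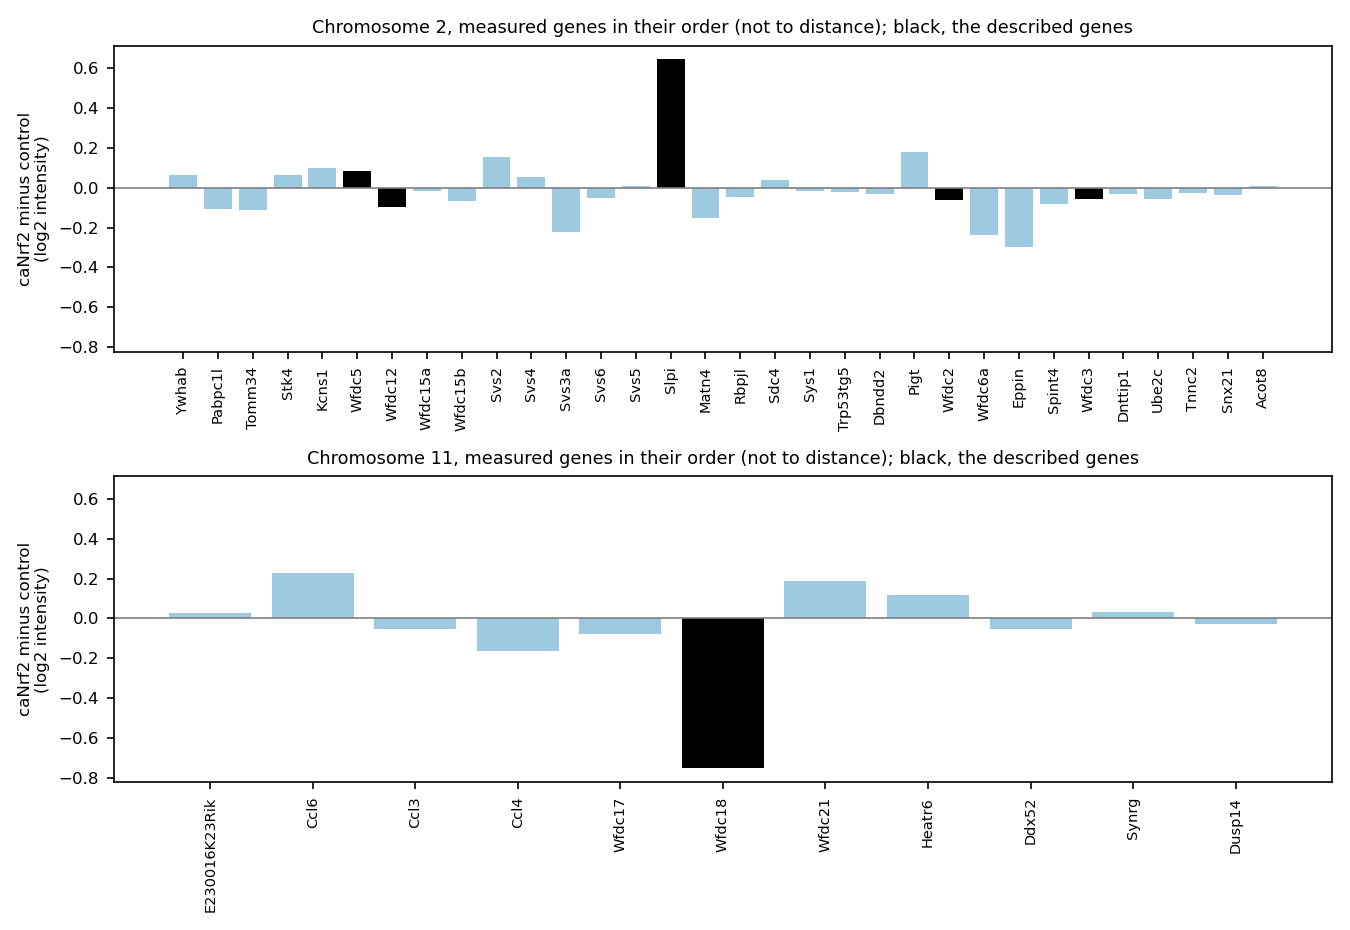
Log2 difference, caNrf2 minus control, of the measured genes around the WAP-domain genes of chromosome 2 (upper panel) and around Wfdc18 on chromosome 11 (lower panel), in genomic order and not to distance. The bars of Slpi at 0.64 and Wfdc18 at -0.75 (black) stand among neighbours between -0.30 and 0.23. Several neighbours of Slpi were no brighter than the Y-linked genes.

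Serine proteases of immune cells and of the epidermis were listed without regard to which of them these inhibitors bind. Of 11 measured serine proteases of neutrophils and mast cells none passed, and the median log2 difference was -0.02. Elane, neutrophil elastase and the best known target of Slpi, measured 4.78, 4.91 and 5.02 in control and 4.76, 4.65 and 4.47 in caNrf2 skin. Its groups did not overlap and its level was dim on each array, with a difference of -0.28 ± 0.10 (adjusted p = 0.443). Mcpt2, a mast cell protease, differed by -0.23 ± 0.11 (adjusted p = 0.583) and Tpsg1, a tryptase, by -0.15 ± 0.08 (adjusted p = 0.642). Both were dimmer than the median probe set, and the 4 proteases of this list that were brighter differed by -0.13 to 0.16. Of 15 measured serine proteases of the epidermis none passed either, with a median of 0.01. The membrane-bound proteases Tmprss13 and Tmprss4 differed by 0.27 ± 0.08 (adjusted p = 0.338) and 0.27 ± 0.10 (0.457), and the kallikrein Klk9 by -0.24 ± 0.09 (0.490).

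Inhibitors outside the WAP family, antimicrobial proteins and reported partners of Slpi, not all of which bind it, held no called gene. The 15 measured serine protease inhibitors of other families had a median of 0.02, and 0.066 without caNrf2 array 3. Their summed intensity did not overlap, at 17479 to 17882 units in control and 18565 to 19286 in caNrf2 skin, nor did it without the brightest, Serpinb5. The largest difference in that list, by p, was that of Serpinb6c, at 0.42 ± 0.10 (adjusted p = 0.264), while Serpinb5 differed by 0.20 ± 0.08 (0.481) and Serpina12 by 0.18 ± 0.08 (0.531). The 15 antimicrobial proteins had a median of -0.07, which was 0.013 without control array 1, -0.13 without control array 2 and 0.012 over the 8 brighter than the median probe set. Among them were S100a8 at -0.27 ± 0.13 (0.583), lactoferrin (Ltf) at -0.25 ± 0.13 (0.600) and the beta-defensin Defb6 at 0.19 ± 0.11 (0.658). Progranulin (Grn), which Slpi protects from cleavage by elastase, was among 7 reported partners with a median of -0.04. The scramblases Plscr1 and Plscr4, which bind Slpi at the cell surface, differed by -0.19 ± 0.11 (0.653) and -0.15 ± 0.08 (0.635), and the kinase Irak1 by 0.11 ± 0.08 (0.747). Over the 17 lists outside the Nrf2 targets, 0 of 169 genes were called, where 0.240% of all probe sets were, so that little is read from this count. An unadjusted p under 0.05 (limma) was found for 15 of them, where 7.53% of all genes had one.

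**Figure D4:**
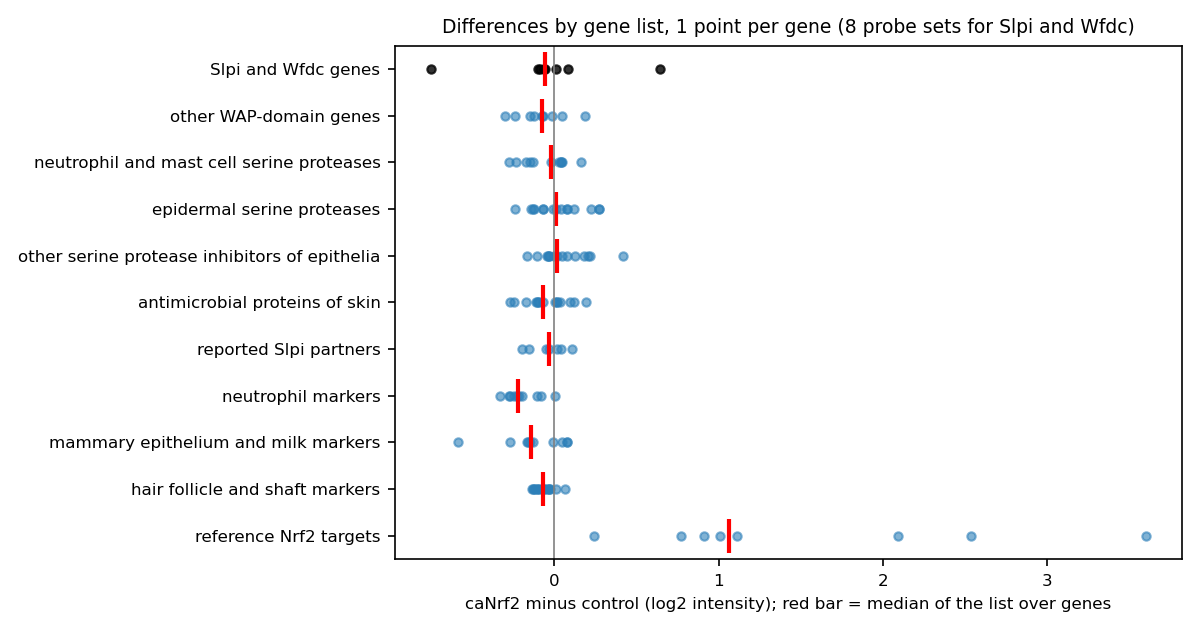
Log2 difference, caNrf2 minus control, with 1 point per gene in each list (1 per probe set for Slpi and the Wfdc genes, black) and a red bar at the list's median over genes. Nrf2 targets lie from 0.24 to 3.61, and the points of the other lists lie between Wfdc18 and Slpi.

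Most of the known targets of Nrf2 examined rose in caNrf2 skin. Of 8 such genes 6 were called higher and none lower, with a median log2 difference of 1.06. The quinone reductase Nqo1 rose by 3.61 ± 0.13 (adjusted p = 3.38e-07), the sulfiredoxin Srxn1 by 2.54 ± 0.11 (1.22e-06) and the glutathione transferase Gsta4 by 2.09 ± 0.09 (1.07e-06). Gclm and Gclc, which encode both subunits of the limiting enzyme of glutathione synthesis, rose by 1.11 ± 0.10 (0.000415) and 1.01 ± 0.11 (0.00156), and thioredoxin reductase Txnrd1 rose by 0.77 ± 0.07 (0.000782). The cystine transporter Slc7a11 differed by 0.91 ± 0.17 (0.0812) and haem oxygenase Hmox1 by 0.24 ± 0.10 (0.541). The difference of Slpi, at 0.64, was thus smaller than that of each called target. Nfe2l2, which encodes Nrf2, differed by 0.41 ± 0.08 (0.0812) on its brighter probe set, without overlap of the groups, and by 0.24 ± 0.14 (0.648) on the other. A match of the probes to the transgene was not examined.

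Markers of cells that could carry these transcripts were also examined. Of 12 neutrophil markers 10 were measured and 9 were lower in the mean of caNrf2 skin, with a median of -0.22, but none was called. Of these 10 markers 7 were dimmer than the median probe set, where 68.2% of all genes were lower in caNrf2 skin. The summed intensity of the 10 markers was 3481 to 3846 units in control and 2709 to 4000 in caNrf2 skin, so that the ranges overlapped. Most of it came from Stfa2l1, with 2833 to 3291 units in control and 2156 to 3431 in caNrf2 skin. Stfa2l1 had a mean of 11.46, far above the 7.47 of S100a8, the next brightest of these markers. Whether its signal came from neutrophils was not tested, so the sum is no measure of them. The other 9 markers summed to 555 to 701 units in control and 553 to 581 in caNrf2 skin, which also overlapped. The defining marker Mpo was dim, at 4.23, with a difference of -0.33 ± 0.11 (adjusted p = 0.443). Of 12 markers of mammary epithelium and milk 10 were measured, with a median of -0.14 and none called. All but 1, Elf5, were dimmer than the median probe set, and Elf5 differed by 0.08. The sums over the 10 overlapped, at 406 to 431 units in control and 373 to 445 in caNrf2 skin, and without Elf5 they did not, at 244 to 267 and 214 to 240 units. The sums without Elf5 hold dim genes only, and of all genes dimmer than the median probe set 68.2% were lower in caNrf2 skin. The casein gene Csn3 differed by -0.58 ± 0.17 (limma adjusted p = 0.348) on its brightest probe set, which was dim at 4.48. With the mean of its probe sets the difference was -0.31, and with the offset of 16 it was -0.34. Lalba, which encodes alpha-lactalbumin, and Glycam1 differed by -0.27 ± 0.11 (0.520) and -0.17 ± 0.08 (0.568). The part of either cell type in the values of Slpi and Wfdc18 was not tested.

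The median log2 difference was 0.05 for 9 basal, 0.03 for 12 suprabasal and 0.01 for 8 upper hair follicle markers, and none of these genes was called. The 17 measured genes of the hair follicle and shaft had a median of -0.07. Relative to the control mean their median was 0.16, 0.02 and -0.35 on caNrf2 arrays 1 to 3. Array 3 had the lowest hair signal, and Slpi was also lowest there among caNrf2 arrays. The medians of the Nrf2 targets (1.19, 1.28 and 0.93) and neutrophil markers (-0.13, -0.17 and -0.29) were lowest on array 3 too. So were those of upper hair follicle markers (0.01, 0.16 and -0.09), epidermal serine proteases, inhibitors of other families and antimicrobial proteins. Those of suprabasal, mast cell, muscle and fibroblast markers were highest there. Among the hair genes Shh differed by -0.13 ± 0.09 (limma adjusted p = 0.703), Msx2 by -0.12 ± 0.10 (0.779) and Krt32 by -0.13 ± 0.13 (0.809). Without caNrf2 array 3 the difference of Slpi was 0.76 and that of Krt32 was 0.03; the part of hair follicles in the level of Slpi was not tested. Macrophage, mast cell, muscle, fibroblast and adipocyte markers had medians of -0.01, 0.00, 0.01, 0.00 and -0.07, with no called gene; that of macrophage markers was 0.099 without caNrf2 array 1.

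Likeness to Slpi and Wfdc18 was measured as Pearson's correlation of the 6 log2 values, among 11752 genes brighter than the median probe set, and the arrays share the genotype contrast, so these values are a description. The 5 genes most like Slpi were Leprotl1, 4833439L19Rik, Egln3, Aqp9 and Pgrmc2, with correlations from 0.984 to 0.996. Egln3 encodes a prolyl hydroxylase that acts on hypoxia-inducible factors, and Aqp9 a channel for water and glycerol. Their log2 differences lay between 0.09 and 0.24, none was called, and the lowest adjusted p was 0.434. The 5 genes most like Wfdc18 were Myo7b, Mir142, Vtn, Flt4 and Cog1, with correlations from 0.984 to 0.998. Vtn encodes the adhesion protein vitronectin and Flt4 a receptor of lymphatic endothelium. These differed by -0.30 to -0.11, again with none called (lowest adjusted p = 0.229).

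**Figure D5:**
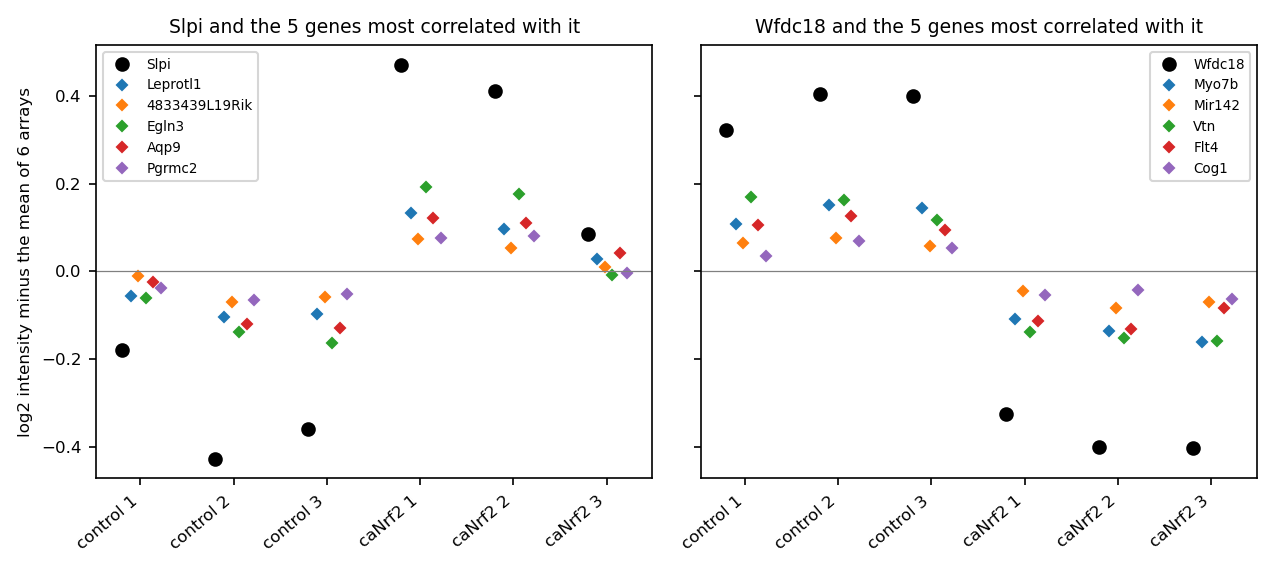
Log2 intensity on each of 6 arrays minus the mean over the 6, for Slpi (left) and Wfdc18 (right) in black and for the 5 genes most correlated with each in colour. In each panel the coloured points stay closer to 0 than the black ones, with differences between genotypes of 0.09 to 0.24 (left) and -0.30 to -0.11 (right).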

How the data were processed

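Expression was measured with 1 array per mouse from 2 µg of total RNA, labelled with biotin per the labels' protocols. The authors deposited linear intensities, 1 for each probe set of an array, from RMA per the submitters' processing notes. The sources used here do not give its version or any filter. RMA makes the distributions of arrays alike (medians 80.9 to 82.1 intensity units), which hides shifts common to most genes and shrinks the folds of dim ones. Columns of other series numbered 0.

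Deposited intensities were converted to log2. The table has 45101 probe sets, from which 64 Affymetrix controls were removed. The platform annotation gave 1 symbol for 34945 of the others, several for 932 and none for 9160. All 45037 probe sets were fitted with limma 3.58.1 in R 4.3.3 (lmFit, eBayes, no covariate, 4 residual degrees of freedom) and p-values adjusted by Benjamini-Hochberg at a threshold of 0.05. The fit was tested on simulated data. For other gene lists the brightest of a gene's probe sets was used. Of 18193 genes 18032 were found in the reference table of GRCm38.p6, which gave the gene order. Replicates are separate mice of 1 litter, and the number of arrays limits the precision.

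The genes described and all lists were chosen with earlier results of these data known. Genes named are all members with each probe set, the 3 genes of smallest p in each list (of cell type lists, only those set beside a result), the Nrf2 targets, and the 5 genes most like Slpi and Wfdc18 by correlation. Nfe2l2, Grn, Wfdc17, Elf5, Stfa2l1, Matn4, Svs5 and the chemokine genes fall outside this rule and were named after their values were seen. Fits were repeated with median centring, with the replicate number as a block, with an offset of 16 before log2, with another quantile normalisation, a filter on low values, an intensity trend, robust eBayes, array weights, leaving out each array, 1 probe set a gene, and the mean of a gene's probe sets.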

Additional observations from a re-analysis of the deposited data

How the results depend on the processing

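Slpi stayed higher and Wfdc18 lower under all 16 alternatives, by 0.57 to 0.76 and by -0.78 to -0.69 on the log2 scale. With single arrays left out the ranges were 0.57 to 0.76 for Slpi and -0.78 to -0.74 for Wfdc18, and the value of -0.69 came from the offset of 16, which damps the differences of dim probe sets. Wfdc18 was called in all 16, Slpi in 7. The number of the 8 probe sets called was 1 in the fit over all probe sets and 2 with the replicate block, median centring, a filter on low values, an intensity trend, without caNrf2 array 3, with 1 probe set a gene and with the mean of a gene's probe sets, and 1 to 2 over the single arrays left out. Wfdc1 and 1 probe set of Wfdc3 changed sign in some alternatives, around differences close to 0.

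Of 45037 probe sets 108 were called, 102 higher and 6 lower. The count was 64 to 136 with single arrays left out, namely 69, 64 and 67 without control arrays 1, 2 and 3, and 68 or 63 with 1 value a gene, where fewer features are tested. No gene of the other lists outside the Nrf2 targets and no neighbour was called under any alternative. Among 44 other named genes only Krt32 changed sign, to 0.035 without caNrf2 array 3, with a range of -0.28 to 0.035 over single arrays left out. Slc7a11 passed the threshold with an intensity trend (0.91), array weights (0.94), without caNrf2 array 1 (1.13) and with the mean of its probe sets (1.46). Leaving out probe sets dimmer than the median kept 5 of the 7 genes, 2 other WAP-domain genes, 8 antimicrobial genes and 1 mammary marker. The medians of these lists turned from negative to 0.0094, 0.056, 0.012 and 0.078, the last being the value of Elf5 alone. The median of neutrophil markers stayed negative, at -0.21, but only 3 of them were left and it was the value of Stfa2l1. Deviations from the group means of same-numbered arrays correlated at -0.15, -0.04 and 0.04, so that no effect shared by replicate number was visible. These correlations cannot show whether same-numbered arrays were processed together. With the replicate block 97 probe sets were called.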
